A study of Mus musculus with 6 samples.

Results

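Genes that carry, store or respond to iron in the absorptive epithelium of the gut were followed in RNA sequencing of mouse intestinal crypts. They are the uptake genes Slc11a2 and Cybrd1, the export genes Slc40a1 and Heph, the storage genes Fth1 and Ftl1, the transferrin receptor gene Tfrc, and the regulators Epas1 and Ireb2. They were chosen by name for their known roles, with earlier results of these data known, and all 9 were found among the 24736 gene symbols of the expression table. The crypts are described as coming from the whole length of the gut of 12-week-old male mice, 3 wild type (WT) and 3 Mtg16-/-, and no mouse was given a treatment. They were released in cold buffer with 2 mM EDTA for 30 minutes, and 1 library per mouse was made from total RNA depleted of ribosomal RNA. MTG16 is a transcriptional co-repressor of the intestinal crypt. The labels call the knockout CRISPR-induced, whereas the study's methods describe Mtg16-/- mice received from another laboratory, and neither gives the background strain. Either way the deletion is not limited to the epithelium, so the crypts came from animals that lack the protein in other organs too.

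Expression is given as TPM, the share of a gene's transcripts in its library, a level that is scaled to gene length and to the same total in every library. TPM can be compared between genes, but it does not show how many reads were counted, so sequencing depth is unknown. Cbfa2t3, which encodes MTG16, had a TPM of 3.67, 6.69 and 4.52 in WT and of 4.62, 6.43 and 3.23 in Mtg16-/-, so its gene-level TPM did not separate the genotypes and the directions below rest on the labels. The epithelial keratin gene Krt8 had a TPM between 2779 and 3310 in the 6 libraries. The 12 endothelial and fibroblast markers together summed to between 5.91 and 9.86, and 9 of them had a mean under 1 TPM.

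Dietary iron enters the body through the enterocytes of the duodenum. Ferric iron is reduced at the brush border by the reductase DCYTB (Cybrd1) and carried in by the divalent metal transporter DMT1 (Slc11a2). Inside the cell it is stored in ferritin, a shell of heavy (Fth1) and light (Ftl1) chains, or leaves at the basal side through ferroportin (Slc40a1), where hephaestin (Heph) oxidises it for binding to transferrin. Crypt cells take up transferrin-bound iron from the blood side through the transferrin receptor (Tfrc). HIF-2α (Epas1) is the hypoxia-inducible factor that drives transcription of uptake and export genes when iron is scarce. IRP2 (Ireb2) responds to iron inside the cell and binds iron-responsive elements, short hairpins in untranslated regions (UTRs). Binding in a 5′ UTR holds back translation, and binding in a 3′ UTR protects the RNA from decay.

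The regular form of the hairpin is printed for the genes that hold it, to show which of the 9 RNAs carry it and in which UTR. GENCODE vM21 transcripts, on the GRCm38 build (mm10), were searched for an unpaired C, 5 bases, the loop CAGTGN and 5 bases that pair with the first stem, with G-T pairs allowed. Each hairpin is given from 5′ to 3′ on the strand of its gene, with 6 more bases on either side and the loop in capitals.
Slc40a1, 5′ UTR, chr1:45925465-45925493, minus strand: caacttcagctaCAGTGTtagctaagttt
Fth1, 5′ UTR, chr19:9982732-9982760, plus strand: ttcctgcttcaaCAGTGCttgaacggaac
Ftl1, 5′ UTR, chr7:45459779-45459807, minus strand: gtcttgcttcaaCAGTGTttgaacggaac
Tfrc, 3′ UTR, chr16:32631219-32631247, plus strand: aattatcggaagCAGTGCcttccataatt
Tfrc, 3′ UTR, chr16:32631598-32631626, plus strand: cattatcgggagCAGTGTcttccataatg
Tfrc, 3′ UTR, chr16:32631663-32631691, plus strand: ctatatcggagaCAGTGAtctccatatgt
Tfrc, 3′ UTR, chr16:32631710-32631738, plus strand: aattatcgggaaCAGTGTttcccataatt
The pattern was found in 4 of the 9 genes: once in the 5′ UTR of Slc40a1, Fth1 and Ftl1, and 4 times in the 3′ UTR of Tfrc. The ferritin elements are identical at 26 of 29 bases, while the element of Slc40a1 matches either ferritin element at 13 of 29. The 4 elements of Tfrc match one another at 18 to 25 of 29 bases. Part of each of these matches was set by the search, which fixes the unpaired C and all but the last base of the loop. Among 21877 protein-coding genes the same pattern was present in the 5′ UTR of 0.142% and in the 3′ UTR of 0.59%. The transcripts of Slc11a2, Cybrd1, Heph, Epas1 and Ireb2 held no match to these letters, which says nothing of hairpins of another form.

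The 9 genes spanned 3 orders of magnitude in level, and the 2 ferritin chains stood far above the rest in every library. In WT crypts Fth1 came first, with a mean of 2265 ± 553 TPM (SD, n = 3). Ftl1 followed at 1219 ± 102 TPM (SD, n = 3), so that the mean of Fth1 was 1.86 times that of Ftl1. The mean of Ftl1 was in turn 10.9 times that of the next gene, Tfrc, at 112 ± 13.7 TPM (SD, n = 3). Tfrc and Heph overlapped in WT, as did Slc11a2 and Ireb2 below them and Slc40a1 and Epas1 below those. Cybrd1 came last, its mean exceeded 10.3 times by that of Epas1. In Mtg16-/- crypts the order was the same except that Ireb2 stood above Slc11a2, and there no neighbours overlapped. Fth1 and Ftl1 lay at the 99.5 and 98.9 percentiles of the mean levels of all tested genes, Cybrd1 at the 3.78 percentile. The ferritin chains together made up 89.8% to 92.3% of the summed TPM of the 9 genes in each library.

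**Figure D1:**
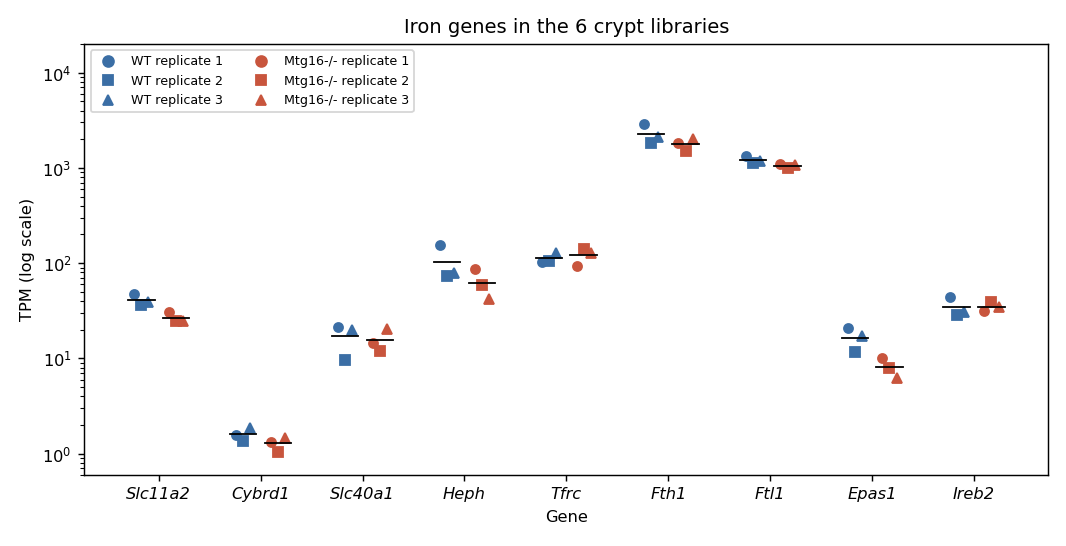
TPM of each of the 9 genes on a logarithmic axis in the 6 libraries, with WT in blue, Mtg16-/- in red, a marker shape for each replicate number and a bar at each group mean. Fth1 and Ftl1 lie at or above 992 TPM and Cybrd1 between 1.05 and 1.86 TPM, and the red points of Slc11a2, Ftl1 and Epas1 all lie below the blue ones.

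The genotypes were compared with limma's moderated test on log2(TPM + 1), fitted over the 12268 genes with a mean of at least 1 TPM, which included all 9. Differences are given on this log2 scale as Mtg16-/- minus WT, with a standard error (SE) and a 95% interval from limma, and p-values were adjusted over all tested genes by the Benjamini-Hochberg method. None of the 9 genes passed an adjusted p under 0.1, where 4 genes of the whole table, 0.0326%, passed. Their adjusted p ran from 0.251 to 0.956. The study's own analysis reported more differentially expressed genes than passed here. The number that passed over the whole table ran from 0 to 1201 among the alternative settings given further below. At an unadjusted p under 0.05, Slc11a2 and Epas1 were lower in Mtg16-/- and none was higher, against 8.05% of all tested genes lower and 6.53% higher. Every Mtg16-/- library was below every WT library for 3 genes, Slc11a2, Ftl1 and Epas1, against 11.1% of all tested genes. The opposite order was seen for none of the 9 and for 9.94% of all tested genes. The fitted difference was negative for 7 of the 9, and its median was -0.22, beside -0.03 over all tested genes, of which 53.6% were negative.

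**Figure D2:**
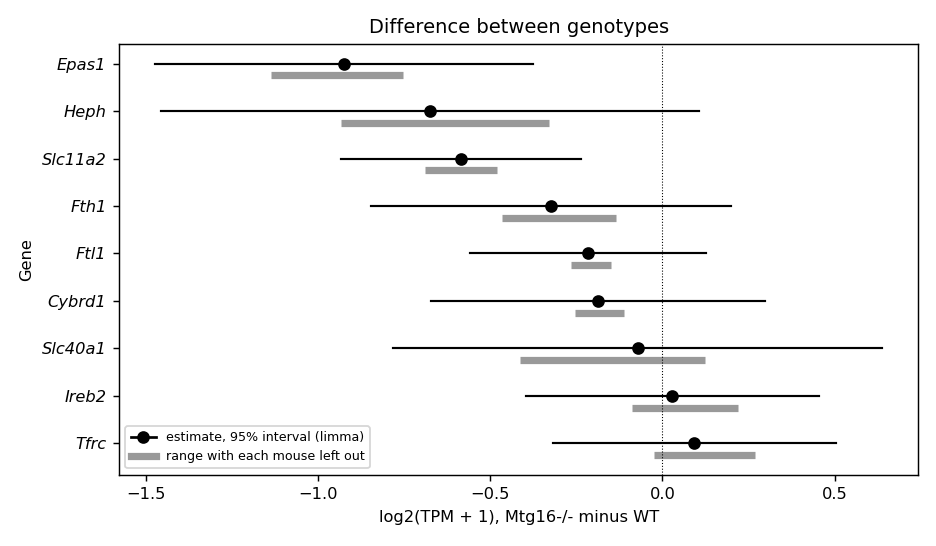
Difference in log2(TPM + 1), Mtg16-/- minus WT, for each of the 9 genes, with the limma estimate as a point, its 95% interval as a line and the range of estimates with each mouse left out as a grey bar. The intervals of Epas1 and Slc11a2 lie below 0 and those of the other 7 genes span it, and the grey bars of Slc40a1, Ireb2 and Tfrc cross 0.

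The apical transporter was the member of the uptake and export pathway whose groups stood apart. Slc11a2 (chr15:100387898-100424209, GRCm38) encodes DMT1, which carries ferrous iron across the brush border and out of endosomes. It had a TPM of 47.0, 36.4 and 38.8 in WT and of 31.0, 24.6 and 24.8 in Mtg16-/-. The highest Mtg16-/- mouse thus stayed below the lowest WT mouse. The WT mean of 40.7 ± 5.54 TPM was 1.52 times the Mtg16-/- mean of 26.8 ± 3.65 TPM (SD, n = 3 each). Its log2 difference was -0.59 (SE 0.15, interval -0.93 to -0.24, adjusted p = 0.253 from limma). The exact permutation test, two-sided, gave p = 0.1, the smallest that 3 mice against 3 allow. Leaving out 1 mouse at a time, the difference lay between -0.69 and -0.48. DMT1 is made from transcript forms with and without an iron-responsive element, and a gene-level TPM sums them.

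Cybrd1 (chr2:71118054-71142926) encodes the ferric reductase that supplies DMT1. It had the lowest level of the 9 genes, with a TPM of 1.58, 1.37 and 1.86 in WT and of 1.34, 1.05 and 1.47 in Mtg16-/-. The groups overlapped, and 8 of the 9 possible pairs of a WT and an Mtg16-/- mouse had the lower value in Mtg16-/-. The log2 difference was -0.19 (SE 0.21, interval -0.67 to 0.30, adjusted p = 0.687), a scale that understates changes at such low levels. The difference was -0.30 with a pseudocount of 0.1, -0.32 with array weights, -0.12 without WT replicate 3 and -0.11 without Mtg16-/- replicate 2.

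On the basal side the 2 export genes differed in level and in spread. Slc40a1 (chr1:45908070-45926532) encodes ferroportin, the cellular iron exporter. Its TPM was 21.5, 9.68 and 20.1 in WT and 14.7, 12.1 and 20.3 in Mtg16-/-. WT replicate 2 was the lowest of the 6 libraries, and the Mtg16-/- values all lay within the WT range. The log2 difference of -0.07 (SE 0.31, adjusted p = 0.928) had an interval from -0.78 to 0.64, so differences within it, in either direction, were not resolved. It was -0.41 without WT replicate 2 and 0.12 without WT replicate 1, and 1 mouse was thus enough to set its sign.

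Heph (chrX:96455436-96574485) encodes hephaestin, the ferroxidase that works with ferroportin. It had a TPM of 156, 73.2 and 78.2 in WT and of 86.2, 59.2 and 42.1 in Mtg16-/-. WT replicate 1 stood apart from all others, and Mtg16-/- replicate 1 was above the other WT mice, so the groups overlapped. The means were 103 ± 46.5 TPM in WT and 62.5 ± 22.2 TPM in Mtg16-/- (SD, n = 3 each). Its log2 difference was -0.68 (SE 0.34, interval -1.46 to 0.11, adjusted p = 0.391), larger in size than that of Slc11a2 but with an interval that spans 0. Without WT replicate 1 it was -0.33.

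The 2 ferritin chains were close to one another in their differences. Fth1 (chr19:9980600-9985111) encodes the heavy chain, which oxidises iron as it enters the shell. Its TPM was 2884, 1821 and 2088 in WT and 1826, 1518 and 2017 in Mtg16-/-. WT replicate 1 was the highest and WT replicate 3 the next, while WT replicate 2 lay within the Mtg16-/- range, so the groups overlapped. The log2 difference was -0.32 (SE 0.23, interval -0.85 to 0.20, adjusted p = 0.514), and -0.14 without WT replicate 1.

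Ftl1 (chr7:45457944-45459886) encodes the light chain, which helps form the mineral core. It varied least among mice, with a TPM of 1332, 1136 and 1188 in WT and of 1088, 992 and 1063 in Mtg16-/-. Every Mtg16-/- library was below every WT library, and the means were 1048 ± 49.5 and 1219 ± 102 TPM (SD, n = 3 each). The distance was small all the same, with a log2 difference of -0.22 (SE 0.15, interval -0.56 to 0.13, adjusted p = 0.510), and the exact permutation test gave its smallest possible p of 0.1.

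Shells rich in heavy chains load iron faster than shells rich in light chains, and the balance of the chains differs between tissues. The ratio of Fth1 to Ftl1 TPM was 2.16, 1.60 and 1.76 in WT and 1.68, 1.53 and 1.897 in Mtg16-/-. Fth1 exceeded Ftl1 in all 6 libraries, and the groups overlapped. The log2 difference of the ratio was -0.11 (exact permutation test, two-sided, p = 0.6), and 0.01 without WT replicate 1. Ferritin genes have processed copies elsewhere in the genome. The 8 other ferritin symbols in the table, those of the Fthl17 family and the mitochondrial ferritin gene Ftmt, were listed at 0 in every library, so no TPM was assigned to them. They were found by the start of the symbol, so processed copies under other names were not examined.

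Tfrc (chr16:32608896-32632794) encodes the receptor through which dividing crypt cells take up iron bound to transferrin. It had a TPM of 103, 106 and 128 in WT and of 93.2, 140.3 and 129 in Mtg16-/-. The Mtg16-/- mice held both the lowest and the highest value. The log2 difference was 0.09 (SE 0.18, interval -0.32 to 0.50, adjusted p = 0.827). Tfrc and Slc11a2 act in the same endosome, where DMT1 releases the iron that the receptor brings in. The ratio of Slc11a2 to Tfrc TPM was 0.457, 0.344 and 0.303 in WT and 0.333, 0.175 and 0.192 in Mtg16-/-. Mtg16-/- replicate 1 lay within the WT range and the other Mtg16-/- mice lay below them. The log2 difference of this ratio was -0.70 (exact permutation test, two-sided, p = 0.2).

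Of the 9 genes the regulator Epas1 had the largest difference in size. It lies at chr17:86753864-86833410 and encodes HIF-2α, the factor that acts on Slc11a2, Cybrd1 and Slc40a1 in the iron-deficient duodenum. Its TPM was 20.6, 11.7 and 17.1 in WT and 10.1, 7.91 and 6.30 in Mtg16-/-. The lowest WT mouse was only just above the highest Mtg16-/- mouse, but no values crossed. The WT mean of 16.5 ± 4.50 TPM was 2.03 times the Mtg16-/- mean of 8.11 ± 1.92 TPM (SD, n = 3 each). The log2 difference was -0.93 (SE 0.24, interval -1.47 to -0.38, adjusted p = 0.251 from limma). The exact permutation test, two-sided, gave p = 0.1, again the smallest possible. When mice were left out 1 by 1, the difference lay between -1.14 and -0.75. Epas1 and Slc11a2 ranked 225 and 230 of 12268 genes by unadjusted p.

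Ireb2 (chr9:54862658-54912534) encodes IRP2, which binds the hairpins printed above. It had a TPM of 44.6, 28.7 and 30.6 in WT and of 31.3, 38.9 and 34.3 in Mtg16-/-. All 3 Mtg16-/- values lay within the WT range, and the means were 34.6 ± 8.68 and 34.8 ± 3.83 TPM (SD, n = 3 each). The log2 difference was 0.03 (SE 0.18, interval -0.40 to 0.45, adjusted p = 0.956). The 4 genes with a hairpin (Slc40a1, Fth1, Ftl1 and Tfrc) had log2 differences between -0.32 and 0.09, and the 5 without ran from -0.93 to 0.03. Neither Slc11a2 nor Epas1, the genes with the smallest p, held a match to the searched pattern, although hairpins of a related, less regular form have been described in both.

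Other genes of iron biology give the setting for these values. With all 6 libraries, 8.05% of all tested genes were lower and 6.53% higher in Mtg16-/- at an unadjusted p under 0.05. Groups did not overlap for 11.1% on the lower side and 9.94% on the higher side. Of 26 further genes of iron and haem transport, 24 were in the table and 15 were tested. None passed the adjusted threshold, 3 were lower and 1 was higher in Mtg16-/- at an unadjusted p under 0.05, and the median log2 difference was -0.00. Slc46a1, which encodes a folate and haem carrier of the proximal gut, had a TPM of 112, 39.0 and 46.2 in WT and of 19.9, 17.1 and 14.4 in Mtg16-/-. No libraries overlapped, and the log2 difference was -1.73 (SE 0.36, adjusted p = 0.198), farther from 0 than that of any of the 9 genes. The haem exporter gene Flvcr1 (-1.31, adjusted p = 0.263) and the zinc and iron transporter gene Slc39a14 (-0.57, adjusted p = 0.330) were lower without overlap, and the haem transporter gene Slc48a1 was higher without overlap (0.61, adjusted p = 0.254). Abcg2, which encodes an exporter of porphyrins and was the most abundant of this list, overlapped between the groups with a log2 difference of -0.11. Hamp, which encodes hepcidin, the liver hormone that closes ferroportin, was listed at 0 in every library.

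Of 22 genes that handle iron or haem inside the cell, 17 were tested. None passed the adjusted threshold, and the median was -0.15. At an unadjusted p under 0.05, 3 were lower and 2 higher, against 8.05% and 6.53% of all tested genes. Alas1, which encodes the first enzyme of haem synthesis, was lower without overlap (-0.41, adjusted p = 0.279). Ferrochelatase, Fech, the last enzyme of that path (0.36, adjusted p = 0.286), and the iron chaperone gene Pcbp2 (0.30, adjusted p = 0.322) were higher without overlap. Pcbp1, which encodes a chaperone that delivers iron to ferritin and was among the most abundant of these genes, overlapped at -0.15. Alas1 and Fech, picked by the naming rule, thus lay in opposite directions, and neither passed the adjusted threshold. Alad, a haem synthesis gene of this list chosen after its values were seen, overlapped at -0.05.

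**Figure D3:**
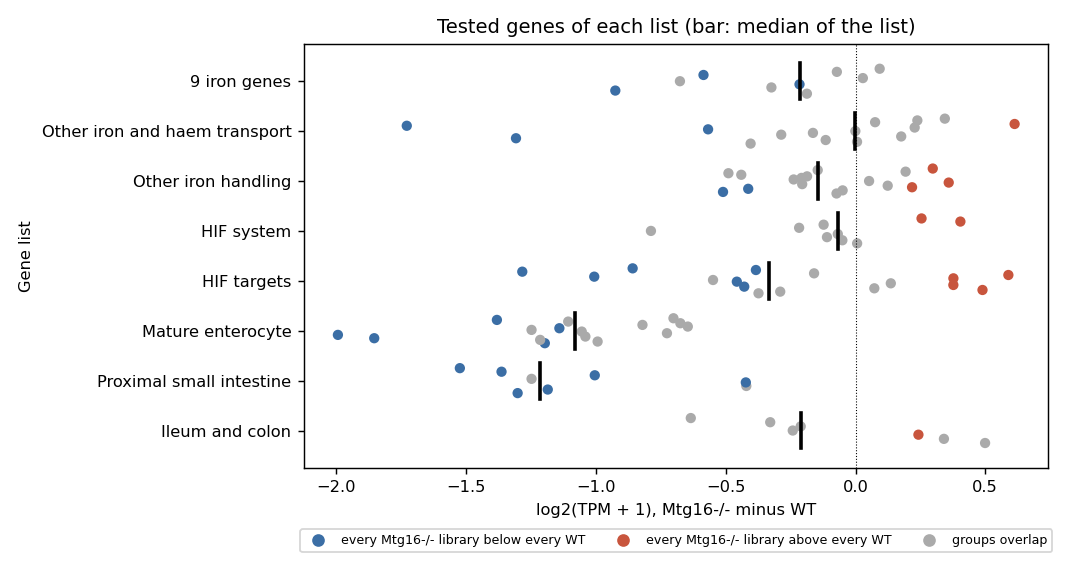
Difference in log2(TPM + 1), Mtg16-/- minus WT, of the tested genes of 8 lists, with a point per gene and a bar at the median of each list. Blue and red points have no overlap between groups and grey points overlap, and the medians run from -0.00 for other iron and haem transport to -1.22 for markers of the proximal small intestine.

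The other genes of the HIF system had a median difference near 0. Of 10 such genes, 9 were tested, none was lower and 1 was higher at an unadjusted p under 0.05, and the median was -0.07. The prolyl hydroxylase genes Egln1 and Egln2, whose products mark HIF-α for degradation, overlapped with log2 differences of -0.11 and -0.07. The third gene of that family, Egln3, chosen after its values were seen, had a TPM of 28.5, 11.1 and 15.5 in WT and of 14.2, 7.15 and 8.25 in Mtg16-/-, a log2 difference of -0.79 (adjusted p = 0.351) with groups that overlapped. The one higher gene was Ubxn7 (0.40, adjusted p = 0.324), whose product links HIF-1α to its ubiquitin ligase. Of 20 HIF target genes, 16 were tested and none passed the adjusted threshold. At an unadjusted p under 0.05, 6 were lower and 4 were higher, against 8.05% and 6.53% of all tested genes. The median of the list was -0.33. The lactate exporter gene Slc16a3 (-1.28, adjusted p = 0.270), the collagen hydroxylase gene P4ha1 (-1.01, adjusted p = 0.225), and the angiogenic factor gene Vegfa (-0.86, adjusted p = 0.297) were lower without overlap. Pdk1, which encodes a kinase that restrains entry of pyruvate into mitochondria, was higher without overlap (0.59, adjusted p = 0.225). The glycolytic genes Ldha and Pgk1, the most abundant of the list, had log2 differences of -0.46 and -0.16. Genes of this list that stood apart thus did so in both directions.

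Markers of absorptive cells and of the upper gut differed in level among the libraries. The 16 markers of mature enterocytes summed to 40364, 14200 and 17451 TPM in WT and to 14692, 8351 and 7275 TPM in Mtg16-/-. WT replicate 1 was far above the rest, and the groups overlapped between WT replicate 2 and Mtg16-/- replicate 1. All 16 markers had a negative log2 difference, 9 of them at an unadjusted p under 0.05 and none past the adjusted threshold, with a median of -1.08. Over all tested genes, 53.6% were negative, and 8.05% were lower and 6.53% higher at that unadjusted p. With its own test, the study reported a significant reduction of enterocyte markers in Mtg16-/-. The 8 markers of the proximal small intestine had a median of -1.22, and 7 were lower at an unadjusted p under 0.05. Their sum was 659 to 1993 TPM in WT and 403 to 694 TPM in Mtg16-/-. Lct was counted in both lists, and whether the proximal markers differed apart from enterocyte content was not tested. Pdx1, the transcription factor gene of the duodenum, had a TPM of 13.2, 7.32 and 16.8 in WT and of 5.43, 2.39 and 4.64 in Mtg16-/- (log2 difference -1.36, adjusted p = 0.241). None of the 10 markers of the ileum and colon, of which 7 were tested, passed an unadjusted p under 0.05, and their median was -0.21. Among them, Hoxb13 was at 0 in every library, and Hoxd13 and Aqp8 did not exceed 0.06 and 0.15 TPM. Car1 was at 0 except in replicate 2 of each genotype, at 3.58 TPM in WT and 11.9 TPM in Mtg16-/-. Fabp6 had a mean of 1276 TPM in WT and 1602 TPM in Mtg16-/-, with groups that overlapped (log2 difference 0.34, adjusted p = 0.720). Slc51a, Slc51b and Slc10a2 overlapped as well, at -0.33, -0.63 and -0.24. Of the 7 tested, 4 had a negative and 3 a positive difference. How much colon the crypts held was not tested. The 9 markers of epithelial identity, which include stem and Paneth cell genes, summed to 10469 to 12992 TPM in WT and to 13226 to 14670 TPM in Mtg16-/-, with 4 higher at an unadjusted p under 0.05. In bulk crypts, fewer cells of a type and less RNA per cell cannot be told apart, and the part of these markers in the differences of Slc11a2, Heph, Ftl1 and Epas1 was not tested.

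**Figure D4:**
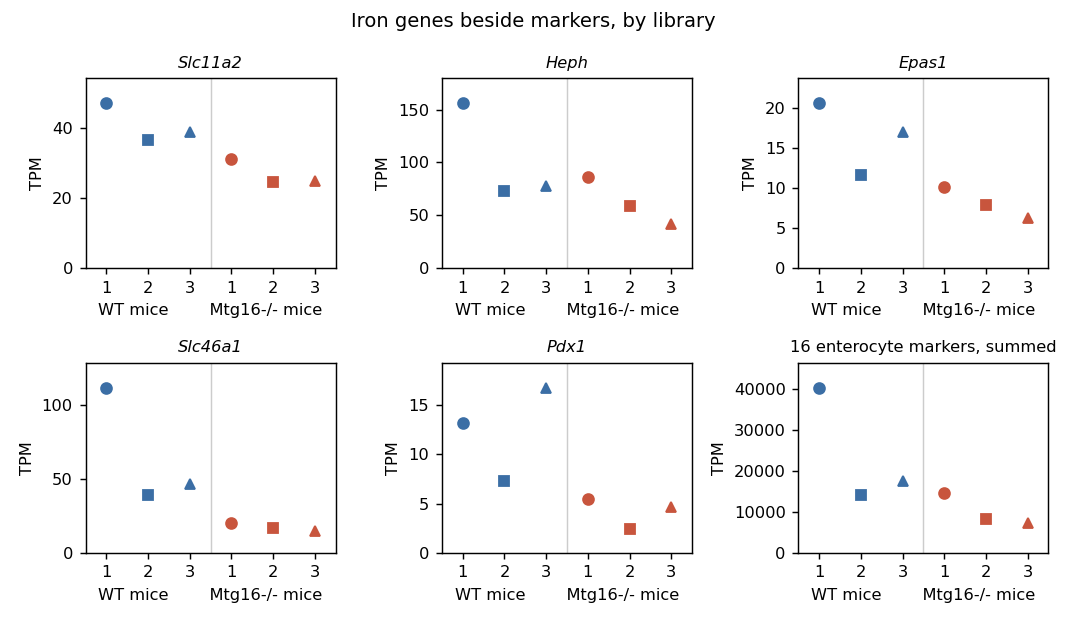
TPM in each library, 3 WT mice in blue and 3 Mtg16-/- mice in red, for Slc11a2, Heph, Epas1, Slc46a1, Pdx1 and the sum of 16 mature enterocyte markers, each on a linear axis from 0. WT replicate 1 is the highest library in all but the Pdx1 panel, and the groups overlap for Heph and the enterocyte sum but not for Slc11a2, Epas1, Slc46a1 and Pdx1.

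WT replicate 1 held the highest value of 7 of the 9 iron genes, all but Cybrd1 and Tfrc. Among the Mtg16-/- mice, replicate 1 was the highest for Slc11a2, Heph, Ftl1 and Epas1, but not for Slc40a1, Cybrd1, Fth1, Tfrc and Ireb2. Leaving out WT replicate 1 keeps Mtg16-/- replicate 1 in the fit. Without WT replicate 1, Slc11a2 and Epas1 had log2 differences of -0.48 and -0.75 and were still the 2 iron genes lower at an unadjusted p under 0.05. The median of the 9 genes was then -0.15, beside -0.03 over all tested genes. In that fit, 752 of all 12268 tested genes were lower and 658 were higher at an unadjusted p under 0.05. The median of the enterocyte markers without it was -0.67, with 5 of 16 lower at an unadjusted p under 0.05, and that of the proximal markers was -0.80, with 6 of 8 lower. The median of the HIF targets was then -0.17, with 4 of 16 lower and 3 higher, that of the ileum and colon markers -0.02, and that of the other iron and haem transport genes 0.10. The summed TPM of the uptake and export genes Slc11a2, Cybrd1, Slc40a1 and Heph was 226, 121 and 139 in WT and 133, 96.9 and 88.7 in Mtg16-/-, overlapping at Mtg16-/- replicate 1.

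Red cell precursors depend on Tfrc, and macrophages on ferritin and ferroportin. The 6 erythroid markers summed to 11.04 to 27.3 TPM in WT and to 12.2 to 33.2 TPM in Mtg16-/-, and 1 of them was at 0 in every library. The 10 macrophage markers summed to 20.3 to 28.9 TPM in WT and to 18.6 to 25.4 TPM in Mtg16-/-, 1 of 6 tested was lower at an unadjusted p under 0.05, and Marco and Vsig4 were at 0 in every library. The 6 lymphocyte markers summed to 55.3 to 127 TPM in WT and to 28.0 to 78.1 TPM in Mtg16-/-, with WT replicate 1 again highest, and none passed an unadjusted p under 0.05. None of the 3 tested erythroid markers and none of the 3 tested endothelial and fibroblast markers did so either. Over all tested genes, 8.05% were lower and 6.53% higher at that unadjusted p. The part of these cells in the levels of Tfrc, Fth1, Ftl1 and Slc40a1 was not tested.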

How the data were processed

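RNA sequencing was performed on crypts of 3 WT and 3 Mtg16-/- mice, 1 library each. The authors deposited RSEM TPM values for 24736 gene symbols, rounded to 2 decimals. The submitters' processing notes name cutadapt 1.9.1, STAR 2.5.2a, RSEM 1.3.0, DESeq2 1.12.3 and mm10. DESeq2 needs read counts and was not run here. Library depth cannot be read from TPM, and no interval that needs it is given. The highest gene held 3.97% to 6.83% of a library's total.

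Groups were taken from the labels. Genes reaching a mean TPM of 1 were tested with limma (3.58.1, R 4.3.3; lmFit and eBayes with an intensity trend) on log2(TPM + 1), without covariates, and called at an adjusted p under 0.1. The limma p-values weigh the difference between genotypes against the spread between mice, which is moderated across genes. The fit was tested on simulated libraries with known changes, all larger than those fitted for the iron genes. That step does not show how well smaller changes are recovered. Exact permutation tests, two-sided, were used for ratios and single genes (scipy 1.17.1). The TPM of a gene sums its transcript forms.

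The 9 genes and the other lists were chosen with earlier results of these data known, and the lists are no independent evidence of a direction. From each list of iron or HIF genes the text names those with an unadjusted p under 0.05 and no overlap, at most the 4 with the largest difference, and the 2 with the highest mean. A gene that this rule names is not reported here. Gene positions and transcripts are from RefSeq and GENCODE vM21 on GRCm38. The alternatives were a pseudocount of 0.1, no filter, a minimum mean TPM of 5, quantile normalization, median-ratio rescaling, no trend, robust moderation, array weights, the replicate number as a block, an adjusted p under 0.05, and each mouse left out.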

Additional observations from a re-analysis of the deposited data

How the results depend on the processing

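Over all tested genes, 4 passed in the reported test. The count was 0 without a filter, with median-ratio rescaling, without the intensity trend and at an adjusted p under 0.05, 1 with quantile normalization, 15 at a mean TPM of at least 5, 20 with robust moderation, 855 with array weights and 0 to 20 with a mouse left out, 20 being without WT replicate 1. Quantile normalization moved the median of all genes by 0.05. Of the 9 iron genes, none passed under these settings except with array weights, where 2 did, Slc11a2 (adjusted p = 0.0631) and Epas1 (adjusted p = 0.0612). Cybrd1 was not tested at a mean TPM of at least 5. The replicate numbers are shared by the genotypes but mark different mice. Deviations of same-numbered libraries correlated at r = 0.429, 0.0753 and 0.237 across genes, so 2 of 3 pairs were over the limit of 0.1 and the numbers were not taken to pair the mice, although 5 of 6 libraries correlated best with their own number. With the replicate number as a block, 1201 genes passed, among them 3 iron genes, Slc11a2 (adjusted p = 0.0345), Epas1 (adjusted p = 0.0346) and Heph (adjusted p = 0.0382).

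The median log2 difference of the 9 genes lay between -0.41 and -0.15 with a mouse left out. Slc11a2, Cybrd1, Heph, Fth1, Ftl1 and Epas1 stayed negative in each alternative in which they were tested. Slc40a1 ranged from -0.41 to 0.12 with a mouse left out and was positive at 0.12 without WT replicate 1, 0.08 without WT replicate 3 and 0.09 without Mtg16-/- replicate 2. Ireb2 ranged from -0.09 to 0.22 and was negative without WT replicate 2 (-0.089), WT replicate 3 (-0.05) and Mtg16-/- replicate 2 (-0.05). Tfrc ranged from -0.02 to 0.27 and was negative without Mtg16-/- replicate 2 (-0.024). The difference of the Fth1 to Ftl1 ratio ranged from -0.20 to 0.01 and was positive without WT replicate 1 (0.014), and that of Slc11a2 to Tfrc from -0.98 to -0.52. The cause of these turns was not tested. With 3 mice a group, differences inside the printed intervals were not resolved.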

Other observations

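For each iron gene the 2 tested genes with the most similar pattern over the 6 libraries were looked up, by the root mean square difference (RMSD) of their deviations in log2(TPM + 1) from their own means. These are descriptions over 6 libraries that share genotype and cell makeup, and carry no test. Ftl1 had the closest neighbours, Cib1 (RMSD 0.014) and Bad (RMSD 0.031). It also varied least itself, with a root mean square deviation of 0.134, against 0.566 for Heph. A gene that varies little can have a small RMSD for that reason, so the RMSD is not comparable between iron genes. Slc11a2 was most like Tmem54 (RMSD 0.055) and Slc35b1 (RMSD 0.056), and Heph was most like 4930402H24Rik (RMSD 0.044) and Lipe (RMSD 0.051). Epas1 lay nearest to Map7d1 (RMSD 0.076) and Slc23a2 (RMSD 0.092), and Fth1 to Cyb5a (RMSD 0.066) and Slc25a5 (RMSD 0.070). Cybrd1 paired with Pdhb (RMSD 0.033) and Ifi30 (RMSD 0.034), Ireb2 with Birc2 (RMSD 0.043) and Zfand5 (RMSD 0.049), and Tfrc with Slc1a3 (RMSD 0.050) and Pds5b (RMSD 0.059). Slc40a1 had the most distant neighbours, Gm15421 (RMSD 0.127) and N4bp2l1 (RMSD 0.177).

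The summed ferritin TPM was 4216, 2957 and 3276 in WT and 2913, 2511 and 3080 in Mtg16-/-, between 0.251% and 0.422% of the total of a library. Mtg16-/- replicate 3 was above WT replicate 2, so the sum overlapped between the genotypes although Ftl1 alone did not.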
